A study of Rattus norvegicus with 31 samples.

Results

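The 8 genes described here are textbook targets of the transcription factor NRF2 (gene Nfe2l2) in the livers of rats given pesticides alone or in pairs. They were taken by name from the gene column of both deposited tables: Gclc, Gclm, Slc7a11, Gsr, Txnrd1, Srxn1, Nqo1 and Hmox1. All 8 had a row, out of 26312 genes in the count table, and all 8 were among the 19904 genes tested. Srxn1 is written in capitals in the tables. The name of the set describes what the genes are known for, and NRF2 protein was not measured.

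NRF2 is held in the cytoplasm by KEAP1, which passes it to a CUL3 ubiquitin ligase for degradation. Electrophiles and oxidants modify KEAP1, NRF2 then enters the nucleus, pairs with a small MAF protein and binds antioxidant response elements, while BACH1 competes for the same elements. In the liver, the targets make and recycle glutathione, reduce thioredoxin, detoxify quinones and break down heme.

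Total RNA sequencing was done on the livers of 31 rats, young adult females of the Wistar strain Crl:WI, after 28 days of daily oral gavage. The 8 control rats received the carboxymethyl-cellulose vehicle, in which the pesticides were also suspended. The fungicide imazalil (IMZ) was given at 93 mg/kg bw/day to 4 rats, and the neonicotinoid insecticides thiacloprid (THI) and clothianidin (CTD) at 108 mg/kg bw/day to 4 rats and at 288 mg/kg bw/day to 3 rats. The paper marks this CTD group as having lost 1 or more rats that were killed when moribund. Each mixture was given to 4 rats, THI+IMZ at 54 and 46 mg/kg bw/day, THI+CTD at 54 and 134 mg/kg bw/day and IMZ+CTD at 46 and 135 mg/kg bw/day. Each rat was 1 library, so the spread is that between animals.

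The control libraries held 32726300 to 101230067 counts and those of the treated rats 31820322 to 54791509 counts. All 7 hepatocyte markers (Alb, Ttr, Apoa1, Serpina1, Hnf4a, Tat and Tf) were detected, and their summed level was between 156339 and 246239 CPM (counts scaled to a common library size) in every rat. Some markers of other cell types also moved, mainly with CTD and THI+CTD. Of all genes tested, 6.62% were up-regulated and 6.03% down-regulated with CTD, 2.67% and 1.71% with THI+CTD, and 0.849% and 0.332% with THI+IMZ. Red blood cell markers summed to between 156 and 187 CPM in the 3 CTD rats against 27.3 to 67.6 CPM in the controls, with 4 of 5 up-regulated and Slc4a1 down-regulated. In THI+CTD 1 of 5 was up-regulated, and 1 of the 4 rats (number 3) reached 216 CPM. Kupffer cell markers, those of the liver's resident macrophages, summed to between 266 and 384 CPM in CTD and 273 to 336 CPM in THI+CTD against 331 to 530 CPM in the controls, with 2 of 8 down-regulated in each. Of the markers of stellate cells 1 of 6 rose and 1 fell in CTD and in THI+CTD, of endothelial cells 1 of 6 fell in each, and of hepatocytes 1 of 7 fell in CTD, 2 fell in THI+CTD and 1 rose in THI+IMZ. With CTD, 1 call in a list of 6 or 7 is near the shares of all genes called. No marker of lymphoid cells (6 tested) or bile duct cells (5 tested) was called in any treatment. The lymphoid markers were barely detected, at control means of 0.0458 to 0.467 CPM, so the lack of calls says little about these cells. Of the bile duct markers, Krt7 and Sox9 were also low, at control means of 0.0923 and 0.287 CPM. In whole liver, fewer cells of a type and less RNA per cell cannot be told apart.

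The antioxidant response element that NRF2 reads has the core TGACNNNGC. This core was searched on both strands in the 250 bases before the transcription start of RefSeq genes on the GRCr8 build, where 10.1% of 33469 promoters held it. Of the 8 genes 6 had a promoter in this table, and the core was found in Gclm and in 1 of the 2 start sites of Txnrd1. It was also found in 10 of 37 other pathway genes with a promoter in the table, Me1, Gsta3 and Idh1 among them, and in 1 of 9 regulators (Mafk). Of the cell type markers, which were not listed as NRF2 targets, Alb, Hnf4a, Kdr and Clec4f held it. The markers with a promoter in the table were not counted. Among the genes with the core, Mafk rose with THI+IMZ and Idh1 fell with CTD, and neither sequence is shown. The sequences of Gclm, Txnrd1, Me1 and Gsta3 are shown as examples of genes that carry the core and were up-regulated. They were chosen with their values known. They are written 5′ to 3′ on the strand of the gene, and capitals mark the core in either orientation.
Gclm (chr2:213031885-213032134, plus strand): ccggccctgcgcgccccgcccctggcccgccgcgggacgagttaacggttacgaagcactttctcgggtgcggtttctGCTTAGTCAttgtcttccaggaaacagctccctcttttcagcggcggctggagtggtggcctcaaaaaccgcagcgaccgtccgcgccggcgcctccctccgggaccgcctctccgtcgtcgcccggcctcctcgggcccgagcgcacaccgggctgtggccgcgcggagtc
Txnrd1 (chr7:22755949-22756007, minus strand): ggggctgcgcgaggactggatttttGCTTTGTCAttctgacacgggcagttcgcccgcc
Me1 (chr8:96540378-96540436, minus strand): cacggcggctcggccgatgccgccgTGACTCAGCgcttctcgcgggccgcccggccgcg
Gsta3 (chr9:31154947-31154988, plus strand): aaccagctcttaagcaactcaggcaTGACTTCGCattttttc
The core began 172 bases before the start in Gclm, 78 in Txnrd1, 167 in Me1 and 17 in Gsta3. It stood in reverse orientation in Gclm and Txnrd1 and forward in Me1 and Gsta3. The windows of Gclc, Nqo1, Slc7a11 and Srxn1 did not hold these letters. Elements farther upstream lie outside these windows, and a match is a match of letters only.

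Each treatment was set against the 8 controls with the quasi-likelihood method of edgeR, and a gene was called up- or down-regulated at an adjusted p under 0.05 over all genes tested. CTD up-regulated 6 of the 8 genes (Gclc, Gclm, Slc7a11, Gsr, Txnrd1 and Srxn1), where 6.62% of all genes tested were called higher. THI+IMZ up-regulated 4 (Gclm, Gsr, Txnrd1 and Srxn1), beside 0.849% of all genes, and THI+CTD 4 (Gclc, Gclm, Gsr and Srxn1), beside 2.67%. THI alone and IMZ alone each up-regulated 2, Gclm and Gsr, beside 0.377% and 0.191% of all genes. With IMZ+CTD 0 of the 8 were called, beside 1% of all genes called higher. Of the 4 members with an unadjusted p under 0.05 there, Gclm, Gsr and Srxn1 were higher and Hmox1 was lower. The share of 1% does not apply to that unadjusted threshold. The Wald test of DESeq2 called 2 members (Srxn1 and Gsr). Down-regulated members numbered 0 in each treatment, beside 0.166% of all genes with THI, 0.0603% with IMZ, 6.03% with CTD, 0.332% with THI+IMZ, 1.71% with THI+CTD and 0.452% with IMZ+CTD. Negative values were those of Hmox1 with THI+CTD and IMZ+CTD, both at an unadjusted p under 0.05, and of Slc7a11 with IMZ+CTD. Leaving out 1 rat lowered the count of members with CTD to 2 (without CTD rat 1) or 3 (without CTD rat 2), with THI+CTD to 2 (without THI+CTD rat 2 or 3) and with THI+IMZ to 1 (without THI+IMZ rat 1) or 2 (without THI+IMZ rat 3 or 4 or control 3, 6, 7 or 8). With IMZ it fell to 0 (without IMZ rat 3) or 1 (without IMZ rat 1 or 4 or control 3, 5, 7 or 8). The 6 comparisons share the same 8 control rats, so they do not repeat each other independently.

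The median log2-fold change of the 8 genes was 0.61 with THI+CTD, 0.56 with THI, 0.54 with CTD, 0.45 with IMZ, 0.44 with THI+IMZ and 0.19 with IMZ+CTD. Over all genes tested the median lay between -0.07 and -0.01. The changes were mostly under 1 on this scale, so the members moved by less than 2-fold apart from Gclm and Slc7a11 with CTD and some estimates of Slc7a11 that were not called.

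**Figure D1:**
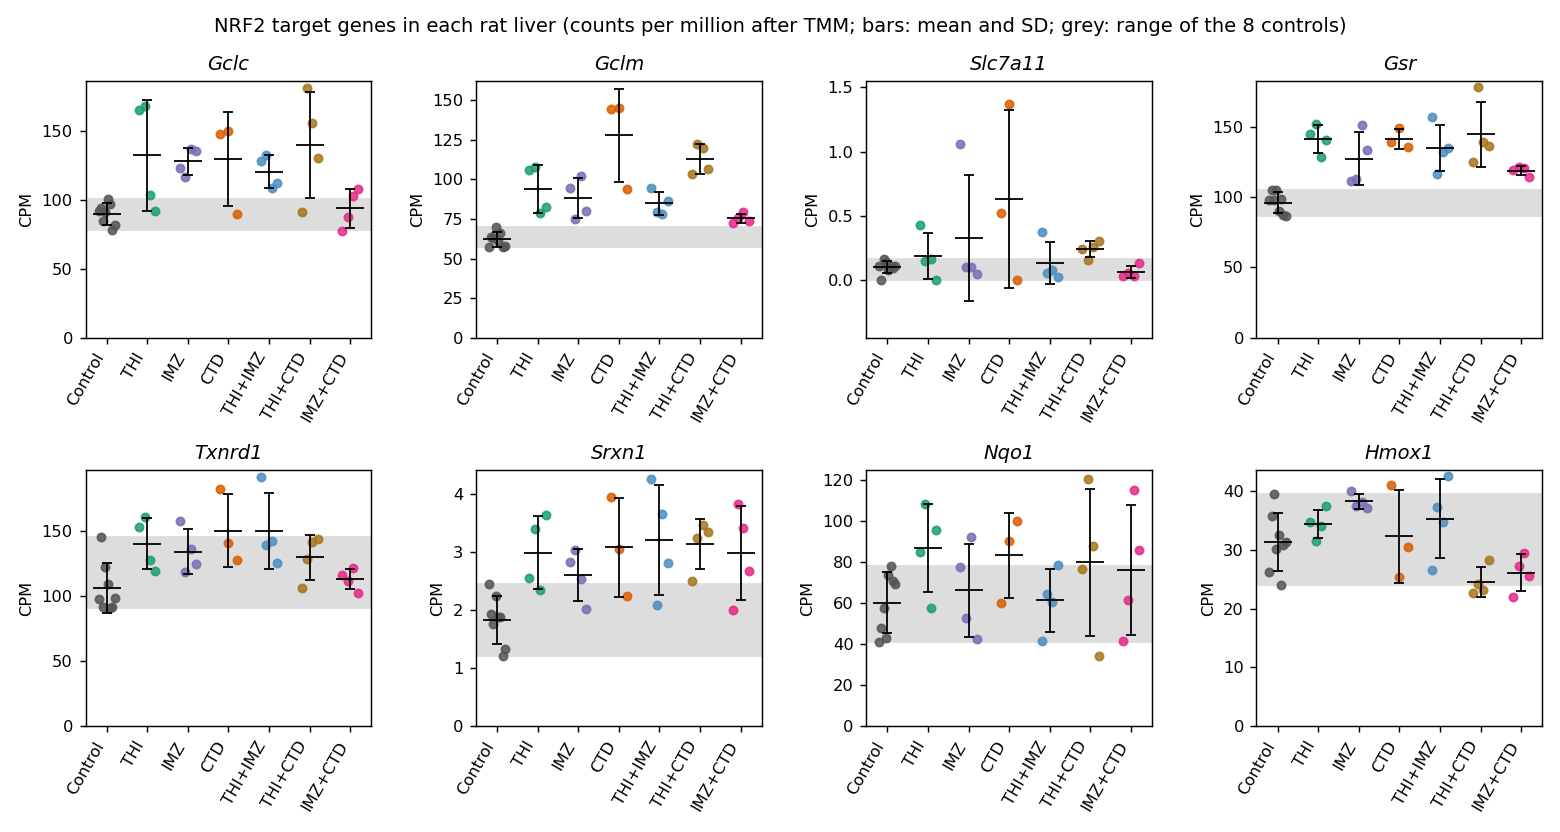
Level of each gene in every rat liver, in CPM after TMM normalization (vertical axes start at 0 except for Slc7a11, which starts just below it), with 8 controls, 3 CTD rats and 4 rats in every other group. Points are rats, black bars the mean and SD, and the grey band the range of the controls; all treated rats lie above the band for Gclm and Gsr, while Nqo1 and Hmox1 overlap it in every group.

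Gclm and Gclc encode the modifier and the catalytic subunit of glutamate-cysteine ligase, the rate-limiting enzyme of glutathione synthesis. Gclm ranged from 57.3 to 70.1 CPM in the controls (median 62.1). The CTD rats had 145, 145 and 94.0 CPM, the THI+CTD rats 103, 123, 120 and 106 CPM, and the THI rats 106, 108, 78.9 and 82.4 CPM. The IMZ rats had 94.9, 75.2, 102 and 80.3 CPM, the THI+IMZ rats 94.6, 79.6, 78.4 and 86.7 CPM, and the IMZ+CTD rats 72.7, 75.9, 79.2 and 73.7 CPM. Every treated rat was above every control rat. Genes with all treated rats above all controls made up 0.734% of those tested with THI, 0.713% with IMZ, 0.794% with THI+IMZ, 1.61% with IMZ+CTD, 2.14% with THI+CTD and 5.33% with CTD.

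The log2-fold change of Gclm was 1.04 (SE 0.11, adjusted p = 8.9e-08) with CTD, a 2.06-fold higher level, and 0.87 (SE 0.10, adjusted p = 1.7e-06) with THI+CTD. It was 0.60 with THI (SE 0.10, adjusted p = 0.0012), 0.51 with IMZ (SE 0.10, adjusted p = 0.013) and 0.45 with THI+IMZ (SE 0.10, adjusted p = 0.017). With IMZ+CTD the change of 0.28 (SE 0.10) was not called (adjusted p = 0.19; unadjusted p = 0.0096). In the order of mean levels, from CTD through THI+CTD, THI, IMZ, THI+IMZ and IMZ+CTD to control, each neighbouring pair of treatments overlapped, and only the last step to the controls did not. The call with IMZ was lost without IMZ rat 1 or 3, and that with THI+IMZ without THI+IMZ rat 1 or 4. Leaving out 1 rat at a time kept the change between 0.43 and 0.58 with IMZ and between 0.39 and 0.49 with THI+IMZ.

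Gclc ranged from 77.6 to 100 CPM in the controls (median 91.2). The THI+CTD rats had 91.1, 181, 156 and 130 CPM, and the CTD rats 148, 150 and 89.9 CPM. The THI rats had 165, 168, 103 and 92.0 CPM. In each of these 3 groups 1 rat stayed within the range of the controls. By contrast, all 4 IMZ rats (116 to 137 CPM) and all 4 THI+IMZ rats (108 to 132 CPM) were above all controls. The IMZ+CTD rats, at 77.1, 87.2, 103 and 107 CPM, lay around the controls.

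Gclc was called with THI+CTD (log2-fold change 0.64, SE 0.15, adjusted p = 0.010) and with CTD (0.53, SE 0.17, adjusted p = 0.032). Values of 0.56 with THI, 0.51 with IMZ and 0.42 with THI+IMZ, each with an SE of 0.15, did not pass (adjusted p = 0.11, 0.21 and 0.22). IMZ+CTD gave 0.06 (SE 0.15, adjusted p = 0.90). The call with CTD was lost without CTD rat 1 or 2 or without control 7 or 8 (0.41 to 0.73 over all single omissions), and that with THI+CTD without THI+CTD rat 2 or 3 (0.49 to 0.80). Without THI rat 4, Gclc was also called with THI, at 0.70. In the order of mean levels the ranges of neighbouring groups overlapped, apart from THI+IMZ and IMZ+CTD.

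Slc7a11 encodes the cystine importer xCT, which supplies cysteine for glutathione. It was barely detected, with 0 to 11 counts per control library. The 3 CTD rats had 20, 53 and 0 counts, or 0.520, 1.37 and 0 CPM against a highest control of 0.164 CPM. IMZ rat 1 had 55 counts while the other IMZ rats were at 0.0432 to 0.0982 CPM. All other treated rats were at or below 0.431 CPM.

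The fitted log2-fold change with CTD was 2.63 (SE 0.80, 95% interval 0.99 to 4.27, adjusted p = 0.027). Leaving out CTD rat 1 or 2 removed the call, and the value ran from 1.39 to 3.20. The change rests on few counts in 2 rats, and the count of 0 in the other CTD rat allows up to 0.0923 CPM (3 counts, counting error only). The change with IMZ (1.70, SE 0.77, adjusted p = 0.57) turned to -0.33 without IMZ rat 1. The remaining values, 0.86 with THI, 0.39 with THI+IMZ, 1.23 with THI+CTD and -0.70 with IMZ+CTD, had SE of 0.80 to 1.02 and were not called.

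Gsr encodes glutathione reductase, which returns oxidized glutathione to its reduced form using NADPH. It ranged from 86.5 to 105 CPM in the controls (median 97.9). The THI rats had 145, 152, 128 and 141 CPM, the CTD rats 139, 149 and 136 CPM, and the THI+CTD rats 125, 178, 139 and 136 CPM. The THI+IMZ rats had 157, 116, 132 and 135 CPM, the IMZ rats 111, 113, 151 and 133 CPM, and the IMZ+CTD rats 119, 121, 121 and 114 CPM. As for Gclm, no treated rat overlapped the controls.

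The log2-fold change of Gsr was 0.59 (SE 0.09, adjusted p = 9.2e-05) with THI+CTD, 0.56 (SE 0.10, adjusted p = 0.00013) with CTD and 0.56 (SE 0.09, adjusted p = 0.00053) with THI. It was 0.49 (SE 0.09, adjusted p = 0.0023) with THI+IMZ and 0.40 (SE 0.09, adjusted p = 0.034) with IMZ. The change of 0.31 (SE 0.09) with IMZ+CTD was not called (adjusted p = 0.077; unadjusted p = 0.0015). The 95% intervals of the 5 called changes all overlapped, from 0.22 at the lowest to 0.77 at the highest. Neighbours in the order of mean levels overlapped down to IMZ+CTD, which was separate from the controls. The call with IMZ was lost without IMZ rat 3 or 4 or without control 3, 5, 7 or 8, with values of 0.31 to 0.47. The calls with THI, CTD, THI+IMZ and THI+CTD held in every single omission.

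Txnrd1 encodes the cytosolic thioredoxin reductase. Its controls ranged widely, from 90.7 to 145 CPM (median 97.8), with the highest value in control 2. The CTD rats had 182, 140 and 128 CPM and the THI+IMZ rats 191, 139, 142 and 125 CPM. Only 1 rat of each was above all controls, but all of them were above the control median. The other groups were at 119 to 161 CPM with THI, 118 to 158 CPM with IMZ, 106 to 144 CPM with THI+CTD and 103 to 121 CPM with IMZ+CTD.

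Txnrd1 was called with CTD (log2-fold change 0.51, SE 0.14, adjusted p = 0.012) and with THI+IMZ (0.50, SE 0.12, adjusted p = 0.034). The values with THI (0.40, adjusted p = 0.20), IMZ (0.34, adjusted p = 0.38), THI+CTD (0.29, adjusted p = 0.20) and IMZ+CTD (0.09, adjusted p = 0.79) were not called. Every neighbouring pair of groups overlapped in the order of mean levels, which began with CTD and THI+IMZ and ended with IMZ+CTD and control. Without CTD rat 1 the CTD call was lost (0.34). The THI+IMZ call was lost without THI+IMZ rat 1, 2 or 3 or without control 1, 3, 6, 7 or 8, with values of 0.36 to 0.58. Without control 2, Txnrd1 was also called with THI, at 0.48.

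Srxn1 encodes sulfiredoxin, which reactivates overoxidized peroxiredoxins. It was present at low levels, 1.21 to 2.44 CPM in the controls (median 1.88), from 49 to 253 counts. The THI+IMZ rats had 4.26, 2.09, 3.65 and 2.81 CPM, the CTD rats 3.95, 3.05 and 2.25 CPM, and the THI+CTD rats 2.51, 3.23, 3.47 and 3.34 CPM. In THI+CTD all rats were above all controls, and in each of the other treatments 1 rat was not.

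The log2-fold change of Srxn1 was 0.80 (SE 0.20, adjusted p = 0.036) with THI+IMZ, 0.77 (SE 0.20, adjusted p = 0.020) with THI+CTD and 0.74 (SE 0.22, adjusted p = 0.022) with CTD. Similar values with THI (0.70, SE 0.20, adjusted p = 0.15) and IMZ+CTD (0.69, SE 0.20, adjusted p = 0.082) were not called, nor was 0.50 (SE 0.20, adjusted p = 0.49) with IMZ. The ranges of all neighbouring groups overlapped. The calls depended on single rats. With CTD the call was lost without CTD rat 1 or 2 (0.52 to 0.92 over all omissions). With THI+CTD it was lost without THI+CTD rat 2, 3 or 4 (0.70 to 0.86), and with THI+IMZ without THI+IMZ rat 1, 3 or 4 or without control 3, 5, 6, 7 or 8 (0.63 to 0.95). Without IMZ+CTD rat 1 it was gained in that group, at 0.84.

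**Figure D2:**
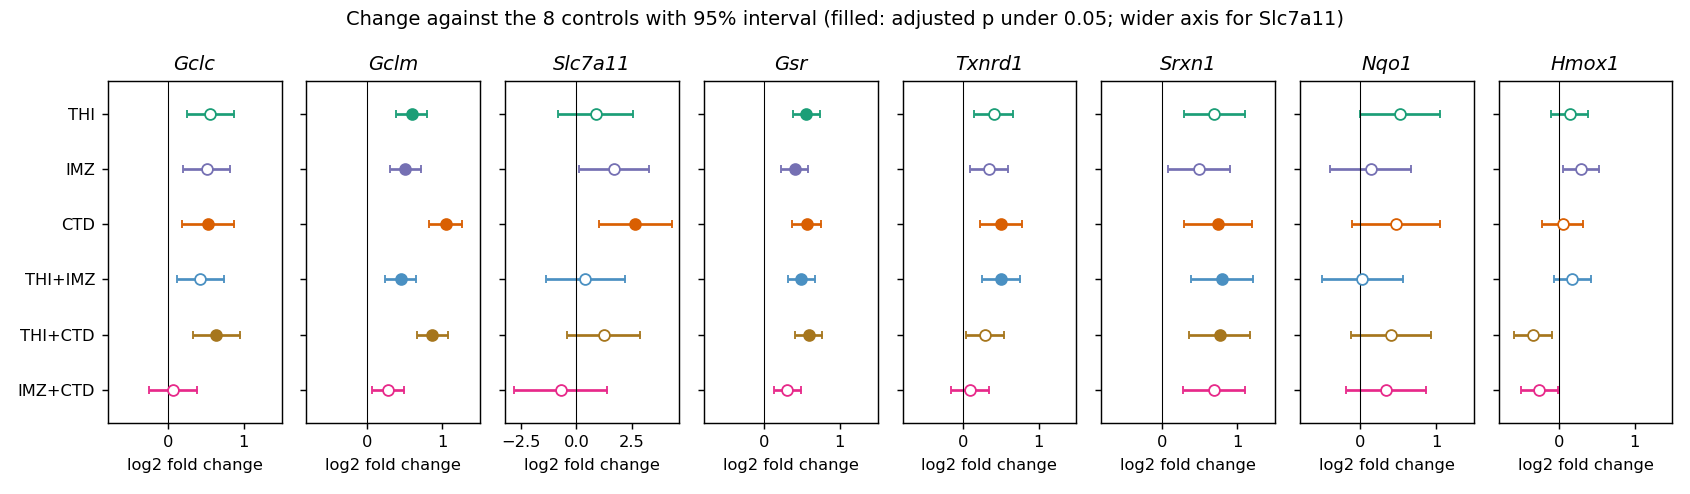
Log2-fold change of each gene against the 8 controls with its 95% interval, one row per treatment; filled points have an adjusted p under 0.05 over all genes tested, and the horizontal axis of Slc7a11 is wider. Gclm with CTD lies highest among the narrow intervals at 1.04, and Hmox1 with THI+CTD and IMZ+CTD lies below 0 without being called.

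Nqo1 encodes NAD(P)H quinone dehydrogenase, which reduces quinones by transfer of electron pairs and is often used as the reporter of NRF2. It was called in 0 of the 6 treatments by edgeR, with 1 (THI) at an unadjusted p under 0.05, and in 0 by DESeq2. Among 6678 genes with a control mean of at least 10 CPM, 94.5% varied less between the controls than Nqo1, whose coefficient of variation was 24.4% against a median of 9.42%. The controls ranged from 41.1 to 78.2 CPM (median 63.4). The THI rats had 85.0, 108, 57.8 and 95.7 CPM and the CTD rats 60.1, 89.96 and 99.8 CPM. The THI+CTD rats had 76.4, 121, 87.9 and 34.3 CPM, so that this group held both the highest and the lowest value of all 31 rats.

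The log2-fold change of Nqo1 was 0.53 with THI (SE 0.26, adjusted p = 0.57), 0.47 with CTD (SE 0.28, adjusted p = 0.32), 0.41 with THI+CTD (SE 0.26, adjusted p = 0.44) and 0.34 with IMZ+CTD (SE 0.26, adjusted p = 0.64). It was 0.14 with IMZ (SE 0.26, adjusted p = 0.93) and 0.03 with THI+IMZ (SE 0.26, adjusted p = 1). The 95% intervals reached up to 1.05 with THI and with CTD, so a change as large as that of Gclm with CTD lay within both.

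Hmox1 encodes heme oxygenase 1, which opens the heme ring and in the liver is abundant in Kupffer cells. It was called in 0 of the 6 treatments by edgeR, with 3 (IMZ, THI+CTD and IMZ+CTD) at an unadjusted p under 0.05, and in 0 by DESeq2. The controls ranged from 24.1 to 39.5 CPM (median 31.1). The IMZ rats were tightly grouped at 37.1 to 40.0 CPM, while the THI+CTD rats were at 22.6, 24.2, 23.1 and 28.3 CPM and the IMZ+CTD rats at 22.0, 27.3, 29.4 and 25.6 CPM. In THI+CTD 2 of 4 rats and in IMZ+CTD 1 of 4 rats were below all controls.

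The log2-fold change of Hmox1 was -0.35 with THI+CTD (SE 0.12, unadjusted p = 0.0077, adjusted p = 0.10) and -0.26 with IMZ+CTD (SE 0.12, adjusted p = 0.36). It was 0.29 with IMZ (SE 0.12, adjusted p = 0.50), 0.17 with THI+IMZ, 0.14 with THI and 0.05 with CTD. The summed Kupffer cell markers were 300 CPM at the median with THI+CTD and 327 CPM with IMZ+CTD against 417 CPM in the controls. Their median was also 328 CPM with CTD and 360 CPM with THI+IMZ, where the Hmox1 values were 0.05 and 0.17. It was 380 CPM with THI and 430 CPM with IMZ. The part of Kupffer cells in the level of Hmox1 was not tested. The red blood cell markers were at 156 to 187 CPM with CTD, where Hmox1 was at 40.9, 25.3 and 30.5 CPM. Their part was not tested either.

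The mixtures contained each compound at about the dose share 0.5 of the single treatment (0.47 for CTD). The question was whether a mixture gave the sum of the log2-fold changes of its compounds, each weighted by that share. THI+IMZ differed from this sum for 0 of the 8 genes, beside 0.0151% of all genes tested, with 0 members at an unadjusted p under 0.05. THI+CTD also differed for 0 of 8, beside 0.286% of all genes, with 1 member (Hmox1) at an unadjusted p under 0.05. DESeq2 called 0 and 1 of them. For THI+IMZ the 95% interval of the difference was -0.31 to 0.11 for Gclm and -0.17 to 0.19 for Gsr, and for THI+CTD it was -0.13 to 0.29 for Gclm and -0.13 to 0.23 for Gsr. Differences from the sum larger than these bounds are outside the intervals, smaller ones are not.

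IMZ+CTD differed from the sum for 1 of the 8 genes, beside 1.16% of all genes. That gene was Gclm. The weighted sum was 0.74 and the mixture gave 0.28, a difference of -0.46 (SE 0.11, 95% interval -0.68 to -0.25, adjusted p = 0.024). The 4 IMZ+CTD rats had 72.7 to 79.2 CPM, while the IMZ and CTD rats, which received about 2 times the dose of each compound, had 75.2 to 145 CPM. The call was lost without any 1 of the 4 IMZ+CTD rats and without CTD rat 1 or 2, with values of -0.55 to -0.42.

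Other members had differences of similar size that were not called with IMZ+CTD. Gclc differed by -0.44 (SE 0.16, adjusted p = 0.18), Hmox1 by -0.43 (SE 0.12, adjusted p = 0.079) and Txnrd1 by -0.31 (SE 0.13, adjusted p = 0.25). Gsr differed by -0.16, Srxn1 by 0.09 and Nqo1 by 0.05. For Slc7a11 the difference was -2.79 (SE 1.00, adjusted p = 0.18), which again includes the CTD rats with few counts. DESeq2 called Hmox1 as well as Gclm, and without CTD rat 2 edgeR called it too. Hmox1 had a similar difference with THI+CTD (-0.44, SE 0.12, unadjusted p = 0.0013, adjusted p = 0.16), and both of these comparisons share the CTD rats and the controls.

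**Figure D3:**
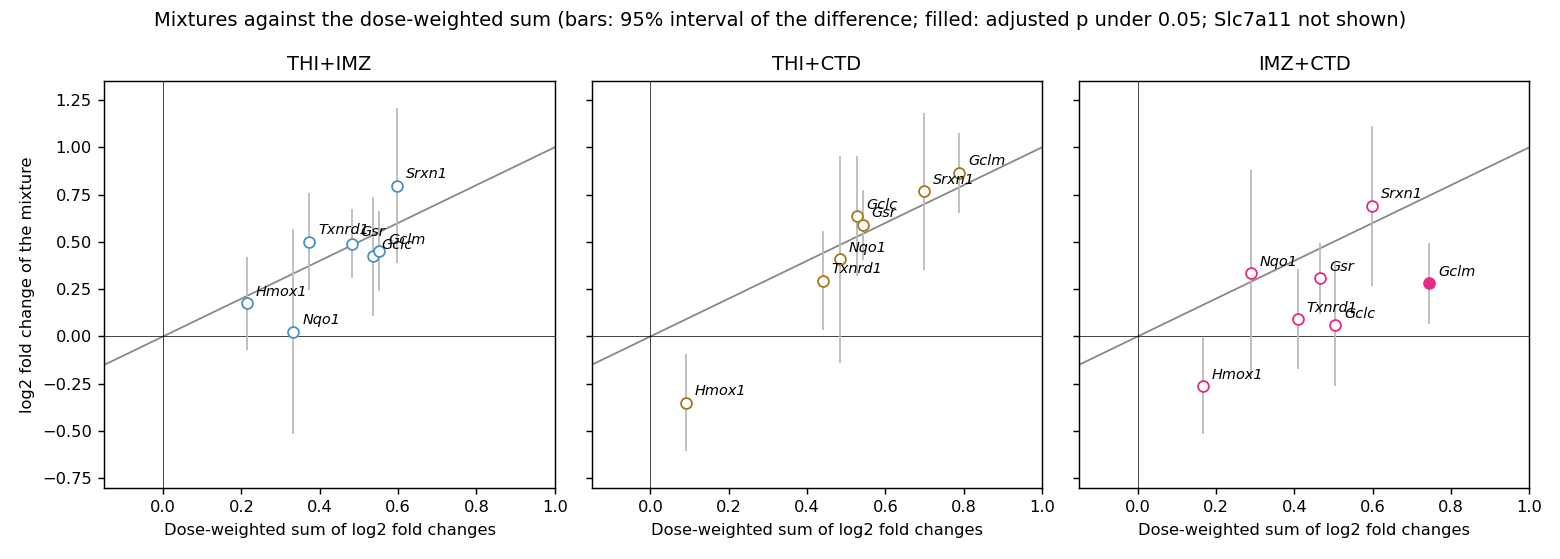
Log2-fold change of each mixture (vertical) over the sum of its compounds weighted by dose (horizontal) for 7 genes, without Slc7a11; the line marks equality, and the bars, drawn around each point, are as long as the 95% interval of the difference. With IMZ+CTD, Gclm (filled, adjusted p = 0.024) lies at 0.28 against a sum of 0.74, and no other point is filled.

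Of the genes that control NRF2, few were called at the level of mRNA. Nfe2l2 itself was at 91.5 to 142 CPM in the controls, and its log2-fold changes, from 0.02 with IMZ to 0.22 with THI+CTD, were not called. Keap1 was not called either, with 0.23 (SE 0.07, adjusted p = 0.14) in THI+IMZ and -0.20 (SE 0.08, adjusted p = 0.11) in CTD as the outermost values. Of the 10 genes in this list, CTD up-regulated 1 and down-regulated 1, beside 6.62% and 6.03% of all genes, so that these counts are near the background. THI+IMZ up-regulated 2, beside 0.849%. The other treatments changed 0, beside 0.377% of all genes higher and 0.166% lower with THI, and 0.191% and 0.0603% with IMZ. With THI+CTD these shares were 2.67% and 1.71%, and with IMZ+CTD 1% and 0.452%. In THI, IMZ, THI+CTD and IMZ+CTD, 5, 2, 1 and 2 regulators had an unadjusted p under 0.05. The share of all genes at that threshold is not given here, so these counts have no background.

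Cul3, the scaffold of the ligase that marks NRF2, was at 71.6 to 79.4 CPM in the CTD rats against 48.0 to 56.1 CPM in the controls (0.53, SE 0.08, adjusted p = 2.6e-05). Bach1, the repressor, was at 13.4 to 20.2 CPM against 20.1 to 24.3 CPM (-0.45, SE 0.12, adjusted p = 0.0099), and its call was lost without CTD rat 2 or 3 (-0.64 to -0.33). With THI+IMZ the small MAF partners Mafg (0.47, SE 0.11, adjusted p = 0.026) and Mafk (0.38, SE 0.09, adjusted p = 0.025) rose. Both calls were lost without THI+IMZ rat 1, 3 or 4, and that of Mafg also without control 8, with values of 0.39 to 0.55 and 0.32 to 0.42. The ligase subunit Rbx1, the KEAP1-binding Sqstm1, Maff and the related factor Nfe2l1 were not called in any treatment.

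Beyond the 8 genes, lists were drawn by pathway, and only that of conjugation and efflux was drawn as known NRF2 targets. Of 43 listed genes of glutathione, thioredoxin, NADPH supply, heme and iron, and conjugation and efflux, 38 were tested. CTD up-regulated 8 and down-regulated 5 of them, beside 6.62% and 6.03% of all genes, and THI+CTD up-regulated 11 and down-regulated 2, beside 2.67% and 1.71%. THI up-regulated 7 (0.377% of all genes), IMZ 4 (0.191%), THI+IMZ 7 (0.849%) and IMZ+CTD 3 (1%), with 0 lower in each. Most of the up-regulated genes belonged to conjugation and efflux, of which 15 were tested: 6 rose with THI, 4 with IMZ, 6 with CTD, 6 with THI+IMZ, 9 with THI+CTD and 3 with IMZ+CTD, beside 0.377%, 0.191%, 6.62%, 0.849%, 2.67% and 1% of all genes. Several of these genes are also known targets of the xenobiotic receptors CAR and PXR.

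Abcc3, a basolateral efflux pump for conjugates, rose in all 6 treatments. It was at 6.97 to 25.2 CPM in the controls and had log2-fold changes of 2.82 with THI+CTD, 2.78 with THI+IMZ, 2.66 with THI, 2.41 with IMZ, 2.17 with CTD and 1.65 with IMZ+CTD, each with an SE of 0.23 to 0.24. The glutathione transferase Gsta3 rose by 1.45 with THI, 1.30 with IMZ, 1.49 with THI+IMZ and 1.30 with IMZ+CTD (SE 0.20 each), with 136 to 305 CPM in these groups against 35.0 to 126 CPM in the controls. Gstm1 rose by 0.96 (SE 0.14) with IMZ+CTD, where Gclm and Gsr were not called. Gsta3, Gstm1, Gstm3 and, below, Akr1b8 are given only for treatments where they were among the 3 largest called rises. They may have been called in other treatments too. Gstm3, at 0.0303 to 0.326 CPM in the controls, rose by 3.36 with IMZ (SE 0.60), 2.65 with THI (SE 0.61, adjusted p = 0.037) and 2.38 with THI+IMZ (SE 0.62, adjusted p = 0.049).

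The calls of Gstm3 with THI and THI+IMZ were close to the threshold. They were lost without most single rats, namely THI rat 1, 2 or 3 and control 1, 2, 5, 6 or 7 for THI (2.21 to 2.88), and THI+IMZ rat 1, 3 or 4 and any control for THI+IMZ (1.46 to 2.78). Akr1b8, an aldo-keto reductase, rose by 1.89 (SE 0.36) with CTD and 2.07 (SE 0.33) with THI+CTD. Cbr3, a carbonyl reductase, fell by 1.41 on the log2 scale with CTD (SE 0.36, adjusted p = 0.0088), with 0.57 to 1.31 CPM in the controls and 0.207 to 0.494 CPM in the CTD rats, and was not called without CTD rat 2 (-1.81 to -1.15 over all omissions).

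NADPH feeds both glutathione reductase and thioredoxin reductase. Among the genes of its supply, Me1 (malic enzyme) rose by 2.23 (SE 0.32) with CTD and 2.08 (SE 0.30) with THI+CTD. It also rose with THI (1.27, SE 0.30, adjusted p = 0.044), and a similar value with IMZ (1.23, SE 0.30, adjusted p = 0.085) was not called; these 2 values were chosen after they had been seen. Its controls were at 20.7 to 54.7 CPM, the CTD rats at 59.8 to 281 CPM and the THI+CTD rats at 56.6 to 212 CPM. Without CTD rat 2, the highest, the CTD value was 1.354 and still called. Idh1, the cytosolic isocitrate dehydrogenase, fell by 1.00 on the log2 scale with CTD (SE 0.11, adjusted p = 1.7e-07), with 223 to 262 CPM against 432 to 520 CPM in the controls.

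In the thioredoxin list (6 tested), the mitochondrial thioredoxin Txn2 fell by 0.86 on the log2 scale with CTD (SE 0.10, adjusted p = 4.0e-07), with 53.4 to 60.2 CPM against 93.6 to 120 CPM in the controls. Txnip, which binds and inhibits thioredoxin, fell by 0.42 with THI+CTD (SE 0.11, adjusted p = 0.016), a call lost without THI+CTD rat 2 or 4 (-0.51 to -0.34). A similar value with IMZ (-0.43, SE 0.11, adjusted p = 0.087) was not called, nor was -0.24 with CTD. The values with THI, THI+IMZ and IMZ+CTD were 0.03, 0.08 and 0.02. In the glutathione list (7 tested), CTD raised 1 gene and lowered 2, beside 6.62% and 6.03% of all genes. THI+CTD raised 1 and lowered 1, beside 2.67% and 1.71%. The gene lowered with THI+CTD was the peroxidase Gpx1 (-0.54, SE 0.13, adjusted p = 0.011), whose call was lost without THI+CTD rat 3 (-0.58 to -0.51). With CTD, Gpx1 (-0.53, SE 0.14, adjusted p = 0.013) and Gpx4 were lowered. Gpx1 was not called at -0.39 with THI+IMZ, -0.29 with THI, -0.23 with IMZ and -0.18 with IMZ+CTD. The values of Gpx1 and Txnip outside THI+CTD were chosen after they had been seen. Of 5 genes of heme breakdown and iron storage, THI+IMZ raised 1, beside 0.849% of all genes, and the other treatments changed 0. Each of these other treatments had 1 gene with an unadjusted p under 0.05 except CTD, with 0. The share of all genes at that threshold is not given here.

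**Figure D4:**
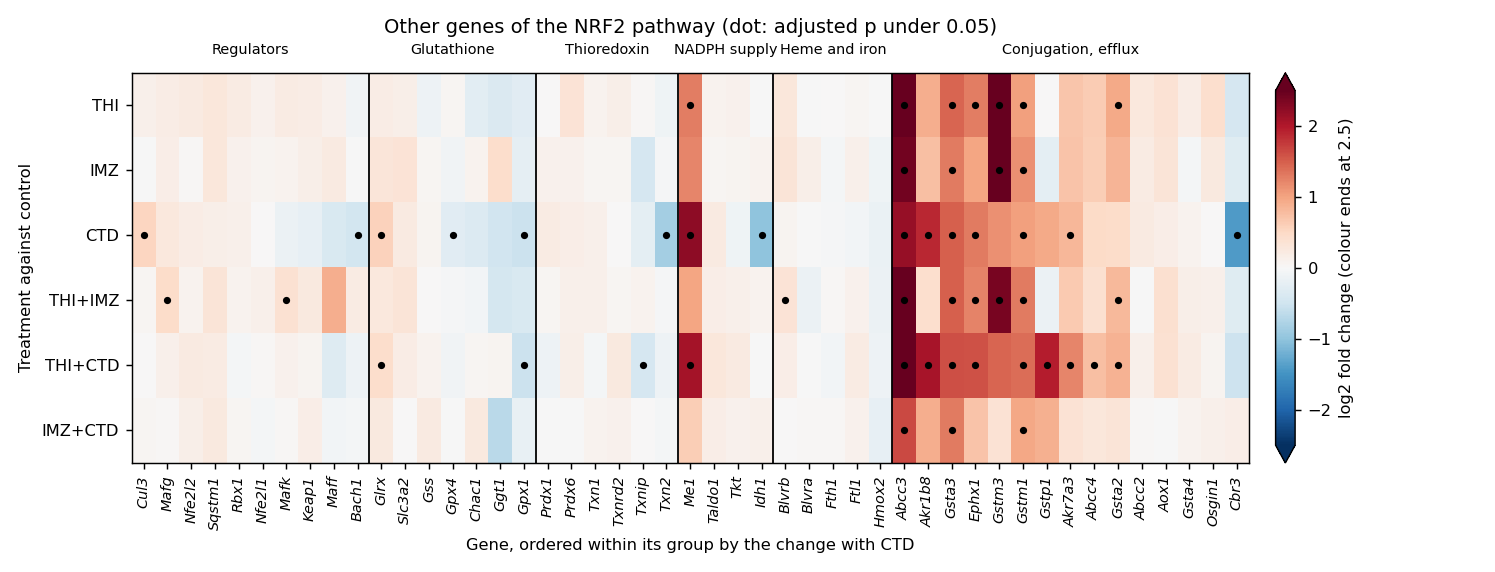
Log2-fold change (colour, from blue for lower to red for higher, ending at 2.5) of further genes listed by pathway, the 10 regulators included, in 6 treatments against control. A dot marks an adjusted p under 0.05. Most dots lie among the conjugation and efflux genes, and Me1 is marked with THI, CTD and THI+CTD.

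Nqo1 is also a target of the aryl hydrocarbon receptor (AHR), so 5 other AHR targets were read beside it. Cyp1a1, the defining one, rose with IMZ (3.28, SE 0.63, adjusted p = 0.0091) and with CTD (3.01, SE 0.67, adjusted p = 0.0023). It was at 0.268 to 7.81 CPM in the controls, 7.72 to 77.6 CPM in the IMZ rats and 9.28 to 44.4 CPM in the CTD rats. Values of 2.45 (adjusted p = 0.079) with THI, 1.81 (adjusted p = 0.11) with THI+CTD, 1.60 (adjusted p = 0.32) with THI+IMZ and 0.41 (adjusted p = 0.83) with IMZ+CTD were not called. Cyp1a2, Cyp1b1, Tiparp and Ahrr were not called in any treatment, and Cyp1b1 and Ahrr were below 0.34 CPM in every rat.

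For the 6 genes called at least once, the genes with the most similar pattern of log2 CPM over the 31 libraries were looked up among 10875 with a symbol and a mean log2 CPM above 0 (10876 for Slc7a11). These values are a description, since the libraries share groups and depth. Gclm was closest to Isyna1 (Pearson r = 0.89) and to Me1 (r = 0.88), Gsr to Grin2c (r = 0.87) and Irak1 (r = 0.86), and Gclc to Slc35e3 (r = 0.86) and Wwc3 (r = 0.85). Txnrd1 was closest to Tnfrsf1a (r = 0.88) and Ipo7 (r = 0.86), and Srxn1 to Gstm1 (r = 0.75) and Mme (r = 0.74). Slc7a11, at few counts, was closest to Tapt1 (r = 0.77) and Dcun1d4 (r = 0.76).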

How the data were processed

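Total RNA of 31 rat livers was sequenced (Illumina, stranded kit). Adapters were trimmed by the authors, and STAR 2.5.2b aligned the read pairs on Rnor_5.0 and counted reads by gene. The first deposited table holds these raw counts, 1 column per rat. The other deposited table, a signal, is those counts after division by DESeq2 size factors, which matched the counts for all 8 genes and was not tested. The annotation release and strand setting are not given in the sources used here, so reads of overlapping or antisense genes cannot be assigned with certainty.

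The 19904 genes whose counts summed to 2 or more were tested with edgeR 4.0.16 (TMM, quasi-likelihood test, 1 model with 7 groups and 31 rats) in R 4.3.3, with Benjamini-Hochberg adjustment over all genes and a threshold of 0.05. SE were computed as the log2-fold change over the square root of F. Mixtures were set against the sum of log2-fold changes weighted 0.5 (THI, IMZ) and 0.47 (CTD). CPM are TMM-normalized, and log2 CPM used a prior count of 2. The model was checked on simulated data. The members and gene lists were chosen with earlier results of these data known. Named pathway genes are all regulators and AHR targets, and per treatment the 3 largest and 3 smallest log2-fold changes among called genes of the other lists, with the 2 genes most alike in pattern to each called member. Further named genes without values complete a list. An item of the lists is not reported here by name. Gpx2, Gpx3, Pgd and Ugt1a6 had no row under these symbols, and Cbr1 and Cd79a were below the count minimum.

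Alternatives were DESeq2 1.42.0 size factors and Wald test, the newer quasi-likelihood method, filterByExpr, no filter, only the groups compared, a replicate block, exact dose ratios, thinning of all libraries to the depth of the smallest, and leaving out each rat. Figures were drawn with matplotlib 3.10.9 in Python 3.11.15.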

Additional observations from a re-analysis of the deposited data

Results flagged for a closer look

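Gclm stood below the dose-weighted sum with IMZ+CTD by a tested difference of -0.46 on the log2 scale (adjusted p = 0.024), described above. Slc7a11 in control 2 lay apart from the other controls on the log2 CPM scale, with 0 counts and a gap of 0.631 of the range of the 8 controls. Chance alone sets about 1 in 20 groups apart in this way, and 48 combinations of gene and group were examined.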

How the results depend on the processing

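Size factors of DESeq2, the newer quasi-likelihood method, both other filters and exact dose ratios changed no call of a named gene. Gclc was also called with THI by DESeq2, and with IMZ and THI+IMZ in fits of only the groups compared, in which Gsr with IMZ and Txnrd1 and Srxn1 with THI+IMZ were not. Gstm3 with THI and THI+IMZ was not called after thinning. Members called with IMZ+CTD rose from 0 to 2 with DESeq2, to 2 with only the groups compared and to 1 after thinning. DESeq2 called 1 member against the sum for THI+CTD and 2 for IMZ+CTD, and 4 comparisons in the thioredoxin list (2 as reported) and 2 in the heme list (1, and 0 with only the groups compared).

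The labels give replicate numbers but name no pairing of rats between groups. Deviations of same-numbered rats correlated by -0.27 to 0.42 (20 of 78 pairs over 0.1). Of the 27 rats numbered 1 to 4, 9 lay closest to their own number. These values cannot show that the numbers carry no pairing. With the number as a replicate block, members called were 0 with THI, IMZ and THI+IMZ, 2 with CTD and THI+CTD (Gclm and Gsr in both), and 0 for IMZ+CTD against the sum; the thioredoxin, heme and AHR lists gave 1, 0 and 0. Under the block Slc7a11 with THI+IMZ turned to -0.11 and Txnrd1 with IMZ+CTD to -0.015. Numbers 5 to 8 occur only among the controls, so the block left controls 1 to 4 for the comparison with the treatments. The smaller number of controls and the adjustment for the number cannot be told apart here.

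Leaving out 1 rat gave 2 to 3 members with THI, 0 to 2 with IMZ, 2 to 6 with CTD, 1 to 4 with THI+IMZ, 2 to 4 with THI+CTD and 0 to 1 with IMZ+CTD and for IMZ+CTD against the sum. The lists gave 2 to 5 calls (regulators), 3 to 6 (glutathione), 1 to 3 (thioredoxin), 3 to 7 (NADPH), 0 to 1 (heme), 32 to 39 (conjugation) and 1 to 3 (AHR). Uncalled values that crossed 0 were Nqo1 (-0.060 to 0.30 with IMZ, -0.12 to 0.17 with THI+IMZ, -0.23 to 0.25 for IMZ+CTD against the sum), Slc7a11 (-0.33 to 2.06 with IMZ, -0.98 to 0.77 with THI+IMZ), Hmox1 (-0.16 to 0.19 with CTD), Gclc (-0.017 to 0.14 with IMZ+CTD) and Srxn1 (-0.057 to 0.24 for IMZ+CTD against the sum).

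Over all genes, DESeq2 called 199, 150, 435, 1386 and 567 with THI, IMZ and the mixtures THI+IMZ, THI+CTD and IMZ+CTD, where the reported fit called 108, 50, 235, 873 and 290, and 54, 174 and 603 against the 3 sums (3, 57 and 230). The block called 45, 23, 1571 (2518 as reported), 53, 348 and 80 in the 6 treatments and 6 for THI+IMZ against the sum. Only the groups compared gave 93 with IMZ, and filterByExpr 391 for IMZ+CTD against the sum. Apart from the choices that use fewer samples or genes, the cause was not tested. Depth limits Slc7a11 most, with 0 to 11 counts in the controls.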

Other observations

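These values were chosen after the data had been seen. Nqo1 differed between the controls by their number: controls 1 to 4 had 41.1, 48.0, 57.8 and 43.0 CPM, and controls 5 to 8 had 73.7, 78.2, 70.6 and 69.0 CPM, so that the ranges did not overlap. For the other 7 genes the ranges of these sets of controls overlapped. The labels give no batch for these numbers. The genes with the pattern most like Nqo1 over the 31 libraries were Sri and Nudt13 (r = 0.64 each), less alike than the closest genes of any called member. Those most like Hmox1 were Arl11 (r = 0.68), Wdfy4 (r = 0.66) and Nlrp3 (r = 0.66), the last known from innate immune cells.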
